A study of Mus musculus with 46 samples.

Results

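Microglia of 8-day-old mice, sorted as Ki67-positive or Ki67-negative, were compared by RNA sequencing. Samples were chosen by their labels: 2 Ki67-positive and 2 Ki67-negative RNA libraries of postnatal day 8 (PND8), 4 of the 46 samples of the series and 4 of its 10 RNA libraries. All 4 came from male C57BL/6 mice of genotype Ki67-rfp, a fluorescent Ki67 reporter that both groups carry, with no treatment. For context, values are also given for 2 other sets of RNA libraries. The repopulation set held 2 Ki67-positive and 2 Ki67-negative libraries from Ki67-rfp males of 75 days, after 17 days of a diet with PLX5622, an inhibitor of the CSF1 receptor, and 3 days of recovery. The adult set held 2 libraries from untreated wild-type males of 90 days, whose cells are labelled Ki67-negative without a reporter in the genotype. Each library was made from 200000 sorted cells, polyA-selected and stranded, and the protocol calls the replicates biological without saying how many animals gave cells to each. The headers of the count table call the groups Ki67Low and Ki67High in its internal library names. Cells were dissociated on ice with blockers of transcription and histone deacetylation, and stained for CD11b, CD45 and CD44.

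Microglia are the resident macrophages of the brain. In the first postnatal weeks they still divide, and in the adult brain they divide rarely. Ki67, the product of Mki67, is a nuclear protein that is made and degraded with the cell cycle: it accumulates through S phase, coats chromosomes in mitosis and decays after division. Genes of DNA replication are classically driven by E2F factors around the entry into S phase, and genes of mitosis by the FOXM1 and MYBL2-MuvB complexes in G2 and M phase.

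PND8 libraries held between 8063370 and 10287876 counts and 13974 to 14728 detected genes. Replicates correlated across genes at r = 0.978 (Ki67-negative) and 0.987 (Ki67-positive) on the log2 scale, and their counts differed by more than sampling noise. The 10 identity markers of microglia summed to between 7382 and 9099 CPM (read counts scaled to a common library total) in the 4 libraries, and none of them was called. Csf1r stood at 1617 and 1267 CPM in the Ki67-negative and 1458 and 1439 CPM in the Ki67-positive libraries, with a log2 fold change of 0.01 ± 0.12 (SE). Cx3cr1, the fractalkine receptor, had 1516 and 1219.6 against 1343 and 1355 CPM. Throughout, CPM values are given for the Ki67-negative replicates 1 and 2 first and for the Ki67-positive replicates 1 and 2 second, and log2 fold changes are Ki67-positive over Ki67-negative with their SE.

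Of 20999 genes, 12230 had enough counts to be tested, and 721 of these (5.9%) were called, meaning an adjusted p under 0.05 (edgeR, quasi-likelihood, Benjamini-Hochberg over all genes tested). Ki67-positive cells had 336 genes higher (2.75% of those tested) and 385 lower (3.15%). The median log2 fold change of all genes tested was -0.03. Among the higher genes 158 differed at least 2-fold, as did 97 of the lower ones. The 16 cell cycle lists held 331 of the 12230 genes tested, and 179 of these 331 were called. They made up 24.8% of the calls: 119 of the higher and 60 of the lower genes. The remaining 217 higher and 325 lower genes belonged to none of these lists, which do not hold every gene of division or replication. Both counts changed when 1 library was left out. Such a fit has 1 library in a group and is less able to call genes. A lost call therefore does not show that it rested on the library left out. All 336 higher and 385 lower genes kept their direction within the pair of replicates 1 and the pair of replicates 2. Choosing called genes favours such agreement. Called or not, 19.1% of genes tested had both Ki67-positive libraries above both Ki67-negative ones in CPM and 26.3% had them below.

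**Figure D1:**
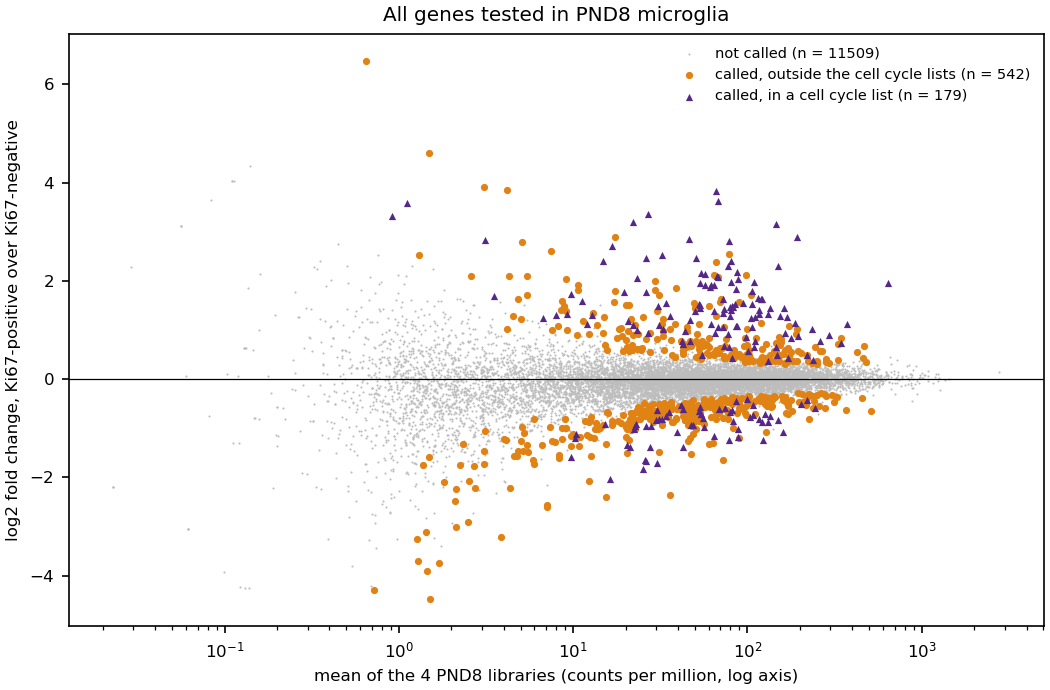
Mean level over the 4 PND8 libraries (horizontal axis, CPM, log scale) against the log2 fold change of Ki67-positive over Ki67-negative (vertical axis) for the 12230 genes tested. Triangles are called genes of a cell cycle list, circles other called genes, dots genes not called; triangles reach further above the zero line than below it.

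Mki67, the gene behind the reporter and the sort, was measured first as a check of the labels. It had 242 and 282 CPM in Ki67-negative and 919.6 and 1107 CPM in Ki67-positive libraries. Both Ki67-positive libraries lay above both Ki67-negative ones, and the log2 fold change was 1.95 ± 0.15. The adult libraries averaged 12.2 CPM, so the Ki67-negative PND8 cells still held well above the adult level of Mki67 RNA.

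Genes of the spindle, the mitotic kinases and cytokinesis rose nearly as whole lists. Of 30 kinesins and spindle genes tested, 28 rose and none fell, with a median log2 fold change of 1.64 against -0.03 over all genes. Of 12 cytokinesis genes, 11 rose (median 1.56), and of 21 mitotic kinases and phosphatases, 17 rose (median 1.33). No member of these lists was called lower. The kinesin and spindle count was 27 or 28 whichever library was left out.

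Cdc25b, a phosphatase that activates cyclin-dependent kinase 1 at the entry into mitosis, had 8.29 and 11.6 CPM in Ki67-negative and 110.5 and 139.6 CPM in Ki67-positive libraries. The groups lay far apart, and the log2 fold change was 3.63 ± 0.19 (adjusted p = 2.7e-07). Its relative Cdc25c rose by a log2 fold change of 3.19 ± 0.33, from 2.23 and 6.15 to 39.4 and 40.5 CPM. Nek2, a kinase of centrosome separation, rose by 2.84 ± 0.25 on the log2 scale, from 6.93 and 15.2 to 79.1 and 84.1 CPM. Plk1, the polo-like kinase of mitotic entry and exit, had 23.4 and 45.5 against 138 and 148 CPM, a log2 fold change of 2.04 ± 0.23. In each of these genes the lowest value was that of Ki67-negative replicate 1. Aspm, a protein of the spindle poles, had 25.4 and 33.0 against 216 and 310.0 CPM, a log2 fold change of 3.16 ± 0.20 (adjusted p = 1.7e-06). Cenpe, a kinesin that moves chromosomes to the spindle equator, rose by 2.304 ± 0.22 on the log2 scale. Among the cytokinesis genes Depdc1b rose by 2.71 ± 0.32, Cep55, which recruits the machinery of abscission, by 2.09 ± 0.24, Ect2, which activates RhoA at the cleavage furrow, by 1.87 ± 0.17 and Anln (anillin) by 1.80 ± 0.21, all on the log2 scale.

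Regulators of anaphase, centromere proteins and chromosome condensation genes rose in part. In the list of the anaphase-promoting complex 7 of 16 genes rose, in the kinetochore and centromere list 11 of 27, and in the condensin and cohesin list 9 of 19, with medians of 0.38, 0.74 and 0.38. None of these 3 lists had a gene called lower. With Ki67-negative replicate 2 left out the centromere list had 16 higher genes. With Ki67-positive replicate 2 left out it had 7, and the anaphase list 4. Cdc20, the activator of the anaphase-promoting complex (mm10 chr4:118432901-118437343, minus strand), had 12.4 and 26.0 against 131 and 145 CPM. The 2 groups did not overlap, and the log2 fold change was 2.81 ± 0.25 (adjusted p = 2.8e-05). Ube2c, the ubiquitin-conjugating enzyme that works with this complex, rose by 2.11 ± 0.23 and Espl1, the protease separase, by 0.88 ± 0.15 on the log2 scale. The core subunits Anapc2, Anapc4 and Anapc5 had log2 fold changes of 0.03, 0.05 and 0.11, and none of them was called. Cenpf, a kinetochore protein that accumulates in G2, had 39.2 and 51.6 against 298 and 379 CPM, a log2 fold change of 2.89 ± 0.14 (adjusted p = 2.0e-07). Cenpa, the histone variant of the centromere, rose by 2.31 ± 0.23 and the spindle attachment protein Nuf2 by 1.53 ± 0.17. Among structural genes Sgo2a, a protector of cohesin, rose by 1.91 ± 0.21, the condensin subunit Smc4 by 1.26 ± 0.18 and the cohesin subunit Rad21 by 0.78, while the cohesin subunits Smc1a and Smc3 stood at 0.12 and -0.06 and were not called. Top2a, the topoisomerase that untangles sister chromatids, had 204 and 267 against 461 and 567 CPM, a log2 fold change of 1.12 ± 0.20. Without Ki67-positive replicate 2 its adjusted p was 0.052.

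Genes of DNA replication moved the other way. Of 42 genes of origin licensing and the replication fork, 30 fell and 1 rose, and 41 of the 42 log2 fold changes were below 0 (median -0.77). Cdc6, which loads the helicase onto origins, had 25.9 and 26.7 CPM in Ki67-negative and 6.17 and 6.70 CPM in Ki67-positive libraries. The replicates lay close together and the groups far apart, with a log2 fold change of -2.03 ± 0.23 (adjusted p = 1.7e-04). Its partner in licensing, Cdt1, had 105 and 117 against 44.7 and 49.4 CPM, a log2 fold change of -1.23 ± 0.15. Lig1, the ligase that joins Okazaki fragments, had 162 and 185 against 74.5 and 72.8 CPM, a log2 fold change of -1.24 ± 0.16. All 6 subunits of the MCM2-7 helicase were called lower: Mcm2 at -0.87, Mcm3 at -0.43, Mcm4 at -0.88, Mcm5 at -0.82, Mcm6 at -1.07 and Mcm7 at -0.82 on the log2 scale. Mcm5 had 183 and 198 against 104 and 111 CPM, and its log2 fold change of -0.82 ± 0.17 had an adjusted p of 0.012, which rose to 0.10 without either Ki67-positive replicate and 0.052 without Ki67-negative replicate 2. Pcna, the sliding clamp, stood at 94.3 and 99.7 against 60.1 and 62.8 CPM, a log2 fold change of -0.66 ± 0.17 (adjusted p = 0.033). The one gene of the list that rose was Dbf4, the activating subunit of the CDC7 kinase, with a log2 fold change of 0.93 ± 0.16. The number of lower genes in this list was 16 without Ki67-negative replicate 2, 11 without Ki67-positive replicate 1 and 6 without Ki67-positive replicate 2, while the list median stayed between -0.84 and -0.63 over the 4 leave-one-out fits.

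**Figure D2:**
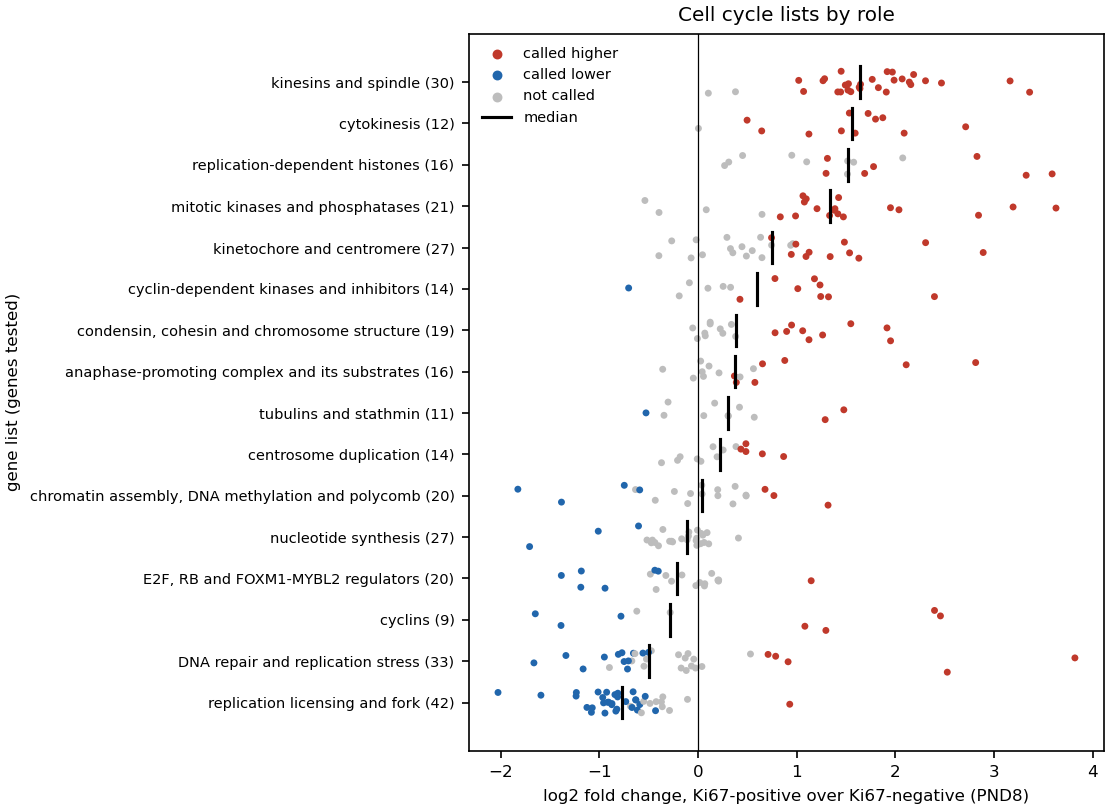
Log2 fold changes of Ki67-positive over Ki67-negative PND8 microglia for the genes tested in each of 16 cell cycle lists, ordered by the median (black bar); red points were called higher, blue points lower, grey points not called. Kinesins and spindle genes stand at the top with a median of 1.64 and replication licensing and fork genes at the bottom with -0.77.

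Cyclins and transcription factors of the cell cycle split along the same line. The E-type cyclins, which drive entry into S phase, fell: Ccne2 had 36.9 and 41.3 against 13.1 and 11.8 CPM, a log2 fold change of -1.65 ± 0.20, and Ccne1 fell by 1.39 on the log2 scale (adjusted p = 0.053 without Ki67-positive replicate 2). Ccnd3, a D-type cyclin, fell by 0.78 and Cdk2, the kinase partner of cyclin E, by 0.70 on the log2 scale. The B-type cyclins rose: Ccnb1 had 12.6 and 18.2 against 81.2 and 89.7 CPM, a log2 fold change of 2.46 ± 0.20 (adjusted p = 1.4e-05), and Ccnb2 rose by 2.40 ± 0.17. Ccna2, the A-type cyclin of S and G2 phase, lay between them at 1.29 ± 0.20, and Cdk1 at 0.78 ± 0.15. Among the transcription factors, E2f1 had 122 and 123 against 62.0 and 45.9 CPM, a log2 fold change of -1.18 ± 0.16. E2f2 fell by 0.94 and Mybl2 by 1.39 on the log2 scale, whereas Foxm1 had 91.1 and 142 against 253 and 265 CPM, a log2 fold change of 1.15 ± 0.19. The retinoblastoma family genes Rb1, Rbl1 and Rbl2 had log2 fold changes of 0.14, -0.16 and 0.21 and were not called. Mybl2 had an adjusted p of 0.11 without Ki67-positive replicate 2.

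Several inhibitors of cyclin-dependent kinases were higher in Ki67-positive cells. Of 14 kinases and inhibitors tested 8 were called higher and 1, Cdk2, lower. Cdkn2c, which encodes the INK4 inhibitor p18, had 51.9 and 72.6 against 137 and 159 CPM, a log2 fold change of 1.24 ± 0.17 (adjusted p = 7.0e-04). Cdkn2d rose by 1.18, Cdkn2a, which encodes p16 and p19ARF, by 1.23 ± 0.30 and Cdkn1b, which encodes p27, by 0.42 ± 0.10, all on the log2 scale. Cdkn2a kept its call only without Ki67-negative replicate 2, with adjusted p of 0.077, 0.073 and 0.15 in the other 3 leave-one-out fits, and Cdkn1b lost it without Ki67-negative replicate 1 or Ki67-positive replicate 2 (0.053 and 0.24). Cdkn1a, the p53 target p21, stood at 0.25 and was not called. Without Ki67-positive replicate 2 the number of higher genes in this list was 2.

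DNA repair and chromatin genes fell on both sides. Of 33 repair and replication stress genes, 12 were lower and 5 higher. Ung, which removes uracil from DNA, had 35.9 and 44.1 against 12.6 and 12.7 CPM, a log2 fold change of -1.66 ± 0.22. Chek1, the checkpoint kinase, fell by 1.34 ± 0.31 on the log2 scale, and was called in 1 of the 4 leave-one-out fits (the others had adjusted p of 0.060 to 0.19). Pif1, a DNA helicase, had 4.46 and 12.5 against 108 and 141 CPM, a log2 fold change of 3.82 ± 0.34 (adjusted p = 2.8e-05). Parpbp, a modulator of recombination, rose by 2.52 ± 0.23. The repair list had 2 lower and 2 higher genes without Ki67-positive replicate 2, 3 lower without Ki67-positive replicate 1, 8 lower without Ki67-negative replicate 2 and 3 higher without Ki67-negative replicate 1. Of 20 chromatin genes 4 were lower and 3 higher: Chaf1b, a subunit of the chromatin assembly factor that follows the fork, fell by 1.83 ± 0.26 and the remodeller Hells by 1.39 ± 0.24 on the log2 scale, whereas H2afx, the histone variant marked at DNA breaks, rose by 1.32 ± 0.18. Hells had an adjusted p of 0.081 without Ki67-positive replicate 2, where the chromatin list had 1 lower and 1 higher gene. Over the other 3 leave-one-out fits it had 2 to 4 lower and 1 to 5 higher. Of 27 genes of nucleotide synthesis 3 fell, and the count was 5 without Ki67-negative replicate 1 and 1 without any other single library. The ribonucleotide reductase genes Rrm1 and Rrm2 stood at -0.01 and -0.52 and were not called.

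Transcripts of replication-dependent histones, which mostly lack a polyA tail, were sparse in these polyA-selected libraries: 16 of 67 could be tested, all 16 had log2 fold changes above 0, and 7 were called higher. Only those with counts in at least 1 group passed the filter, so the 16 do not stand for all 67. Hist1h1c had 12.004 and 11.6 against 40.4 and 40.7 CPM, a log2 fold change of 1.78 ± 0.16 (adjusted p = 2.8e-05). Hist1h3d rested on 3 counts over both Ki67-negative libraries, and its ratio of depth-scaled summed counts was 13.2 with a counting interval of 4.18 to 66.9. It was called in none of the leave-one-out fits. The number of histone genes called was 3 without Ki67-positive replicate 1 and 2 without Ki67-positive replicate 2. Of 11 tubulin and stathmin genes, Tubb4b and Tuba1c rose by 1.48 ± 0.14 and 1.29 ± 0.19, and Tubg1, the gamma-tubulin that nucleates microtubules, was lower at -0.53 ± 0.14 (adjusted p = 0.048). Tubg1 kept its call only without Ki67-negative replicate 1. Further, 5 of 14 genes of centrosome duplication rose, among them Cdk5rap2 by 0.87 ± 0.10. The centrosome count was 2 without either Ki67-positive replicate and 3 without Ki67-negative replicate 2. The span of Tubb4b overlaps that of Fam166a on the other strand.

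**Figure D3:**
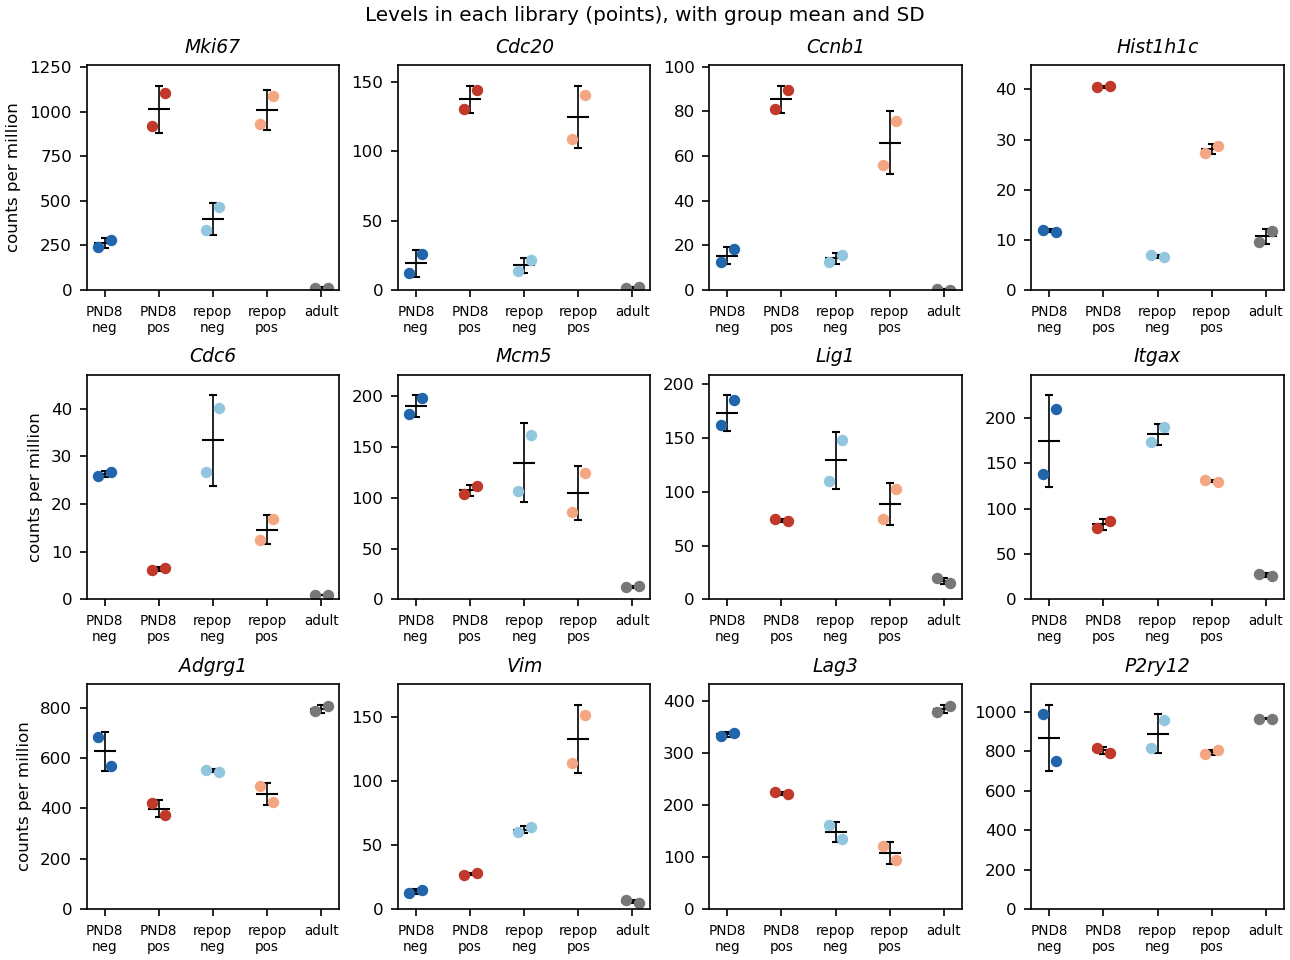
Level in CPM (vertical axes, from 0) of 12 genes in each of the 10 RNA libraries; points are libraries, the bar and whiskers the mean and SD of 2 libraries per group (PND8 and repopulation, Ki67-negative and Ki67-positive, and adult). In PND8 the Ki67-positive points of Mki67, Cdc20, Ccnb1, Hist1h1c and Vim lie above, and those of Cdc6, Mcm5, Lig1, Itgax, Adgrg1 and Lag3 below, both Ki67-negative points, while P2ry12 overlaps.

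Letters before the transcription starts were read because the higher and lower genes moved as groups. The CHR element (TTTGAA or TTCGAA), bound by MuvB complexes, and the CCAAT box, bound by NF-Y, are known from mitotic promoters, and E2F sites from replication promoters. The cases below were chosen to show each: Cdc20 was the only gene with RefSeq-matched start among the 12 largest rises that held both a CHR element and a CCAAT box, and Mki67 and Mcm5 were chosen after their values were seen. Each line gives the 200 bases before the RefSeq start (GRCm38.p6), 5′ to 3′ on the gene's strand, with matches to CHR, CCAAT or E2F letters in capitals. The windows are chr4:118437344-118437543 on the minus strand for Cdc20, chr7:135716380-135716579 on the minus strand for Mki67 and chr8:75109309-75109508 on the plus strand for Mcm5.
Cdc20: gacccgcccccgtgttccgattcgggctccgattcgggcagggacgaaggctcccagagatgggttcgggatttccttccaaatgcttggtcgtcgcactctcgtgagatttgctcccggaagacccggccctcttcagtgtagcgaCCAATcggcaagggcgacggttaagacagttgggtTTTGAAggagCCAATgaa
Mki67: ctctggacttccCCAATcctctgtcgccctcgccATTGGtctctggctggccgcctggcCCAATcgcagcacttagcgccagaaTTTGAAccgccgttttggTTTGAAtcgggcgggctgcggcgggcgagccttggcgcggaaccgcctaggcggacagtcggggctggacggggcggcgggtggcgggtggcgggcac
Mcm5: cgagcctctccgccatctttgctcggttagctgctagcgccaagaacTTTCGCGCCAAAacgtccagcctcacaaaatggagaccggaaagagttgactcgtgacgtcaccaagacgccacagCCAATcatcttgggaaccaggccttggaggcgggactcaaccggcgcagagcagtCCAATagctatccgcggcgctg
The CHR element of Cdc20 begins 18 bases before the start and its 2 CCAAT boxes 53 and 8 bases before it. Mki67 holds 2 CHR elements, at 116 and 98 bases, and 3 CCAAT boxes, 1 of them on the other strand. Mcm5 holds 2 overlapping E2F matches on opposite strands, at 153 and 149 bases, and 2 CCAAT boxes, and no CHR letters.

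Across genes, 9413 of the 12230 tested could be matched to a RefSeq start within 50 bases of the counted one. CHR letters on either strand stood in 28.1% of the 256 matched genes called higher, 9.02% of the 266 called lower and 8.63% of all matched genes. CCAAT on either strand stood in 52.3%, 35.7% and 33.3% of them. E2F letters (TTTCCCGC, TTTCGCGC, TTTGCCGC or TTTGGCGC, either strand) stood in 4.30%, 10.2% and 3.13%. Outside the cell cycle lists the higher genes held CHR letters in 23.5% and the lower genes E2F letters in 6.73%. Both CHR and CCAAT stood in 33.3% of the higher genes inside the cell cycle lists, 13.3% of those outside and 3.32% of all matched genes. CHR and CCAAT matches overlapped each other in 7 promoters and CCAAT and E2F matches in 2. These are shares of promoters with the letters, given without a test.

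Acetylation of histone H3 at lysine 27 (H3K27ac), which marks active regulatory DNA, was profiled in 4 other PND8 libraries of the series, from untreated C57BL/6 males of wild-type genotype, without the reporter, whose fixed cells were stained with a Ki67 antibody. The authors' region lists held 26962 to 30321 regions per library, called separately in each. A region lay within 1000 bases of the start in all 4 libraries for 79.7% of tested genes, 91.6% of the higher and 93.3% of the lower genes in cell cycle lists. No gene of either set lacked a region in all 4. Most starts of lower and of higher cell cycle genes thus carried a region in both Ki67-negative and both Ki67-positive libraries. Regions in both Ki67-positive libraries and neither Ki67-negative one stood at 99 of the 12230 starts, 6 of them at higher genes (Cdc25c, Kif14, Neil3, Ninl, Acot11 and H2-T-ps) and 4 at lower genes (Mybl2, Myb, Stx1a and Dmc1). The reverse pattern stood at 21 starts, 1 of them at a lower gene, Sorbs3, and 0 at a higher one.

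Outside the cell cycle lists, the genes with the largest rises ranged widely in level, and the steepest were low. Atoh8, a basic helix-loop-helix transcription factor, had 0.495 and 0.275 against 6.17 and 5.43 CPM, a log2 fold change of 3.91 ± 0.63 (adjusted p = 0.0019). Spn, which encodes the sialophorin CD43 of white blood cells, had 0.619 and 0.459 against 7.05 and 8.67 CPM, a log2 fold change of 3.86 ± 0.38 (adjusted p = 5.2e-05). Tspoap1 had 5.82 and 2.66 against 32.2 and 28.6 CPM, a log2 fold change of 2.89 ± 0.26 (adjusted p = 3.0e-05). Each of the 3 was also called higher in Ki67-positive cells of the repopulation set, at 4.01, 2.94 and 2.87 on the log2 scale. Tnfaip8l1 had 1.36 and 1.19 against 6.94 and 10.9 CPM, a log2 fold change of 2.79 ± 0.48 (adjusted p = 0.0031, and 0.061 without Ki67-positive replicate 2). The uncharacterised gene 2610318N02Rik rose by 2.61 ± 0.38 and Knstrn, a spindle and kinetochore protein, by 2.55 ± 0.24. Troap (tastin) rose by 2.39 ± 0.23, Pimreg by 2.12 ± 0.23 and Prr11 by 2.12 ± 0.14. Knstrn, Troap, Pimreg and Prr11 had higher levels, with means over the PND8 libraries of 78.9, 65.9, 64.8 and 98.4 CPM. Pmch, the gene of a hypothalamic neuropeptide precursor, was called at 2.11 ± 0.42, but its span overlaps the end of Parpbp on the other strand, and the strand setting of the counting is not given in the sources used here, so reads of the 2 genes cannot be told apart. Pmch had an adjusted p of 0.11 without Ki67-positive replicate 2. In the repopulation set Prr18 stood at -0.16 and was not called, nor was its difference between the sets (edgeR adjusted p = 0.96). It was called in PND8 at 2.09 ± 0.46. It lost its call without Ki67-negative replicate 1 or Ki67-positive replicate 1 (adjusted p = 0.058 and 0.089), and Plekhg3, at 2.11 ± 0.47, kept its call in only 1 of the 4 leave-one-out fits.

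Among the most abundant higher genes outside the lists, Nucks1, a chromatin protein, had 251 and 245 against 418 and 465 CPM, a log2 fold change of 0.83 ± 0.10 (adjusted p = 1.8e-04). Sun2, which links the nuclear envelope to the cytoskeleton, had 349 and 342 against 498 and 521 CPM, a log2 fold change of 0.56 ± 0.08 (adjusted p = 9.7e-04). Arl6ip1, a protein that shapes the endoplasmic reticulum, rose by 0.71 ± 0.09, and D17H6S56E-5 by 0.67 ± 0.12. These 4 kept their calls whichever library was left out. Hcfc1, a cofactor of histone modifiers, Tpr, of the nuclear pore basket, Prpf8, of the spliceosome, and Smarca4, the ATPase BRG1, were called with log2 fold changes of 0.43, 0.40, 0.34 and 0.33. Without Ki67-positive replicate 2 none of these last 4 was called (adjusted p of 0.16 to 0.35).

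Among the most abundant lower genes outside the lists, Adgrg1, the adhesion receptor GPR56, had 682 and 569.6 against 423 and 374 CPM, and the 2 groups did not overlap. Its log2 fold change was -0.65 ± 0.10 (adjusted p = 0.0019, and 0.069 without Ki67-positive replicate 2). Lag3, an inhibitory receptor, had 332 and 339 against 224 and 220.1 CPM, a log2 fold change of -0.59 ± 0.11 (adjusted p = 0.0065, and 0.060 and 0.11 without Ki67-positive replicates 1 and 2). Csf3r, the receptor of granulocyte colony-stimulating factor, stood at -0.39 ± 0.09, Ctsf, a lysosomal protease, at -0.34 ± 0.08, Nav3 at -0.64 ± 0.15, Arhgef40 at -0.46 ± 0.09, Pou2f2 at -0.35 ± 0.09 and Map11 at -0.33 ± 0.09, and all 6 were called. Each of these 6 lost its call without Ki67-positive replicate 2 (adjusted p of 0.17 to 0.30). Nav3 and Pou2f2 were called in only 1 leave-one-out fit each and Map11 in 0 of 4 (adjusted p of 0.054 to 0.31). Arhgef40 overlaps Zfp219 on the other strand, which was also called lower, so their reads cannot be told apart. The spans of Cdc20, Ccne2, Eng, Ltbp3, Nkx6-2 and Tpr also overlap a gene on the other strand, none of which was called. Adgrg1, Lag3 and Csf3r were each higher still in adult microglia, at 796, 384 and 807 CPM. Of the 325 lower genes outside the cell cycle lists, 49.2% had an adult mean above both PND8 groups and 23.7% below both, against 42.2% and 44.4% of all genes tested. Of the 217 higher genes outside the lists, 14.7% had an adult mean above both and 59.4% below both.

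Programmes that describe microglial state differed in few genes in the fit without a replicate block. In 22 function lists, 669 genes were tested and 17 were called (2.54%, against 5.9% of all genes): 4 higher and 13 lower. With the block over all 10 libraries, 780 genes were called higher and 1082 lower in all. It called 6 homeostatic and 7 neonatal and disease-associated genes lower, so these counts depend on the setting. Of 30 homeostatic genes Adgrg1 alone was called without the block. The median of this list was -0.08, but -0.19 within the pair of replicates 1, 0.04 within the pair of replicates 2 and 0.05 without Ki67-negative replicate 1. With Ki67-negative replicate 2 left out 4 genes of the list were lower, and with Ki67-positive replicate 2 left out 0 were. P2ry12, the purinergic receptor by which microglia sense ATP, had 988 and 751 against 819 and 793 CPM, a log2 fold change of -0.11 ± 0.12, with overlapping groups. Tmem119 stood at -0.06 ± 0.11 and Apoe at -0.13 ± 0.11. Of 35 genes linked to neonatal and disease-associated microglia, Itgax and Postn were lower and Vim higher, with a list median of -0.13. Itgax, the integrin CD11c that marks a neonatal microglial subset, had 138 and 210.3 against 78.5 and 87.0 CPM, a log2 fold change of -1.08 ± 0.15 (adjusted p = 8.3e-04). Vim, the intermediate filament vimentin, had 12.4 and 15.2 against 26.7 and 28.1 CPM, a log2 fold change of 0.98 ± 0.17 (adjusted p = 0.0040). Both kept their calls in all 4 leave-one-out fits. Without Ki67-negative replicate 1 the list had 6 lower genes, and Postn, at -0.82 ± 0.17, was not called without Ki67-positive replicate 2 (adjusted p = 0.20).

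**Figure D4:**
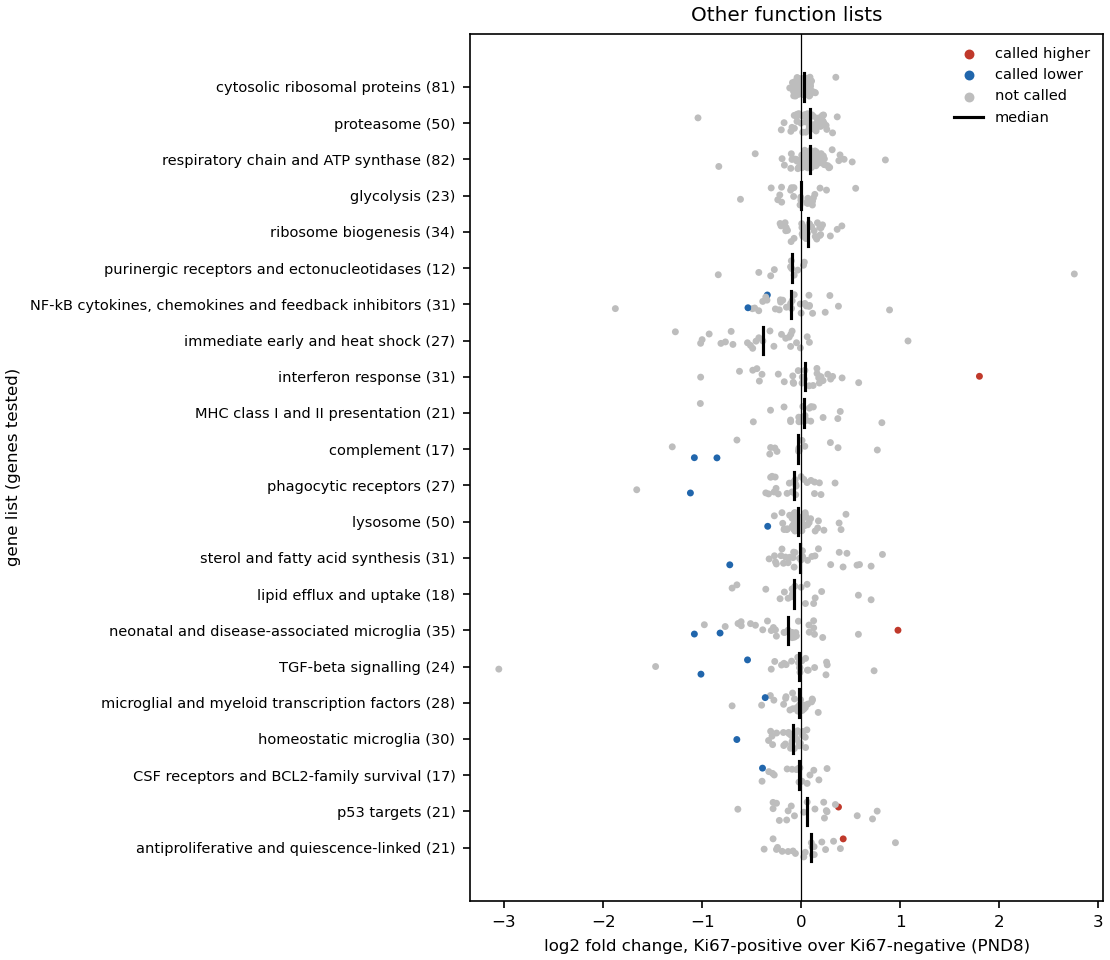
Log2 fold changes of Ki67-positive over Ki67-negative PND8 microglia for the genes tested in 22 other function lists, with called genes in red (higher) or blue (lower), genes not called in grey and the list median as a black bar. Medians lie between -0.39 (immediate early and heat shock genes) and 0.10, and 17 genes carry colour.

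Each immune or metabolic list held at most 2 called genes in the fit without a replicate block. Ifi27l2a was the 1 interferon-response gene of 31 called, with 3.71 and 11.2 against 20.8 and 33.5 CPM and a log2 fold change of 1.80 ± 0.33 (adjusted p = 0.0052, and 0.081 without Ki67-positive replicate 2). Its 2 replicates in each group lay apart, and the list median was 0.04. Among 31 cytokine and chemokine genes of the NF-kB list, Ccl9 fell by 0.54 ± 0.10 (adjusted p = 0.063 without Ki67-positive replicate 2) and Icam1 by 0.34 ± 0.09 on the log2 scale, and Icam1 kept its call only without Ki67-negative replicate 2. In the TGF-beta list Eng (endoglin), a co-receptor, had 209.5 and 196 against 142 and 137 CPM, a log2 fold change of -0.54 ± 0.08 (adjusted p = 0.0012), and Ltbp3, which binds latent TGF-beta, fell by 1.01 ± 0.24. Eng was called in all 4 leave-one-out fits and Ltbp3 in 1. Of 27 immediate early and heat shock genes none was called, but 24 had log2 fold changes below 0 and the median was -0.39 (-0.30 within the pair of replicates 1 and -0.47 within the pair of replicates 2), which became -0.07 when Ki67-positive replicate 2 was left out and -0.08 when Ki67-negative replicate 1 was. Leaving out Ki67-positive replicate 1 gave 5 lower genes in this list, and leaving out Ki67-negative replicate 2 gave 2. In the repopulation set this median was 0.00. No gene was called in the lists of cytosolic ribosomal proteins (81 tested, median 0.02), respiratory chain and ATP synthase (82, median 0.09), proteasome (50, median 0.09), ribosome biogenesis (34, median 0.06), glycolysis (23, median 0.00), antigen presentation (21, median 0.03), lipid efflux and uptake (18, median -0.08) and purinergic signalling (12, median -0.10). In the respiratory chain list 67 of 82 log2 fold changes were above 0, and the median was 0.22 within the pair of replicates 1 and -0.02 within the pair of replicates 2.

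The steepest falls were of low genes that differed between replicates. Ace, the angiotensin-converting enzyme, had 10.4 and 3.67 against 0.881 and 0.578 CPM, a log2 fold change of -3.22 ± 0.57 (adjusted p = 0.0039, and 0.087 without Ki67-positive replicate 2). Enpp2 (autotaxin) had 95.8 and 24.3 against 19.7 and 3.35 CPM, a log2 fold change of -2.35 ± 0.62 (adjusted p = 0.042). Enpp2 was not called without Ki67-negative replicate 1 or Ki67-positive replicate 2 (adjusted p = 0.29 and 0.31), and DESeq2 did not call it (adjusted p = 0.18). Clu, Igf2, Htr2c, Slc29a4, Vat1l, Ecrg4, Nkx6-2, Snhg11, Pla2g4c and Lyve1 completed the 12 largest falls, from -3.00 to -2.07. Each of these 10 lost its call without at least Ki67-positive replicate 2. At the starts of 11 of the 12 no H3K27ac region was called in any of the 4 PND8 libraries, against 17.8% of the 4539 tested genes with a mean level in the same range, 2.09 to 35.8 CPM. Enpp2, Igf2 and Lyve1 had the highest means of the 12, at 35.8, 15.5 and 12.3 CPM, and Vat1l came next at 7.08. The 4539 genes were thus matched to the 12 in range only, not in level.

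Markers of the choroid plexus were lower in Ki67-positive libraries, as these falls were, and Enpp2 counts in both sets. The 10 choroid plexus markers summed to 284 and 114 CPM in Ki67-negative and 77.9 and 30.3 CPM in Ki67-positive libraries. The same order of the 4 libraries was seen in 8 of the 12 largest falls. It was seen in 121 of the 325 lower genes outside the cell cycle lists and 8.45% of all genes tested. Choosing genes called lower favours this order, so these shares cannot be set side by side. Of the 8 tested, all had log2 fold changes below 0 (median -2.18), and the 2 called were Ttr, the carrier of thyroid hormone and retinol, at -1.64 ± 0.33 and Enpp2. This count was 0 with DESeq2 and 0 without Ki67-positive replicate 2. Leaving out Ki67-negative replicate 2 gave 5 called genes and leaving out Ki67-negative replicate 1 gave 1. No marker of this list was at 0 in all 4 libraries, and in the adult libraries the sum was 49.7 and 72.6 CPM. The part of other cells in these falls was not tested. In bulk RNA, fewer cells of a type and less RNA per cell cannot be told apart.

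Other cell type lists differed as follows. The fibroblast list summed to 69.7, 22.9, 15.1 and 8.32 CPM in the same order of libraries. Igf2 was called lower, and Dcn was at 0 throughout. Most of the sum in Ki67-negative replicate 1 came from Igf2, at 41.3 CPM, and Igfbp2, at 16.7 CPM. Only 4 of the 10 genes had enough counts to be tested, and all 4 had log2 fold changes below 0 (median -1.74). Which cells these transcripts came from was not tested. Of 12 border macrophage genes tested only Lyve1 was called, with 12.7 and 27.1 against 3.74 and 5.78 CPM (adjusted p = 0.0093). Its call was lost without Ki67-negative replicate 2 or either Ki67-positive replicate (adjusted p = 0.077, 0.090 and 0.054). The sum of this list, 2613 and 2197 against 2412 and 2400.3 CPM, came mostly from Stab1, Mrc1 and Dab2. The list median was -0.86, and 9 of the 12 log2 fold changes were below 0. Without Ki67-negative replicate 1 the list had 3 genes lower and 2 higher. Pecam1, an adhesion molecule of endothelium and of some macrophages, had 65.6 and 69.8 against 33.5 and 33.3 CPM, a log2 fold change of -1.02 ± 0.14 (adjusted p = 6.3e-04) that held in all 4 leave-one-out fits. Pecam1 was the only gene called in the endothelial list, where 5 of 10 genes were tested. Of these 5, 2 had log2 fold changes above 0, up to 1.19, and 3 below, with a median of -0.20. Pecam1 therefore does not stand for the list. The astrocyte list summed to 99.7 and 432 CPM in the Ki67-negative and 62.6 and 377 CPM in the Ki67-positive libraries. Most of that sum was Slc1a3, a glutamate transporter, at 70.5 and 421 against 38.7 and 361.8 CPM, whereas Slc1a2, Aqp4 and Gfap were higher in replicate 1 of both groups. Erythroid markers were also higher in replicate 1 of both groups, at 78.8 and 31.6 against 64.8 and 23.7 CPM, and no gene of either list was called.

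**Figure D5:**
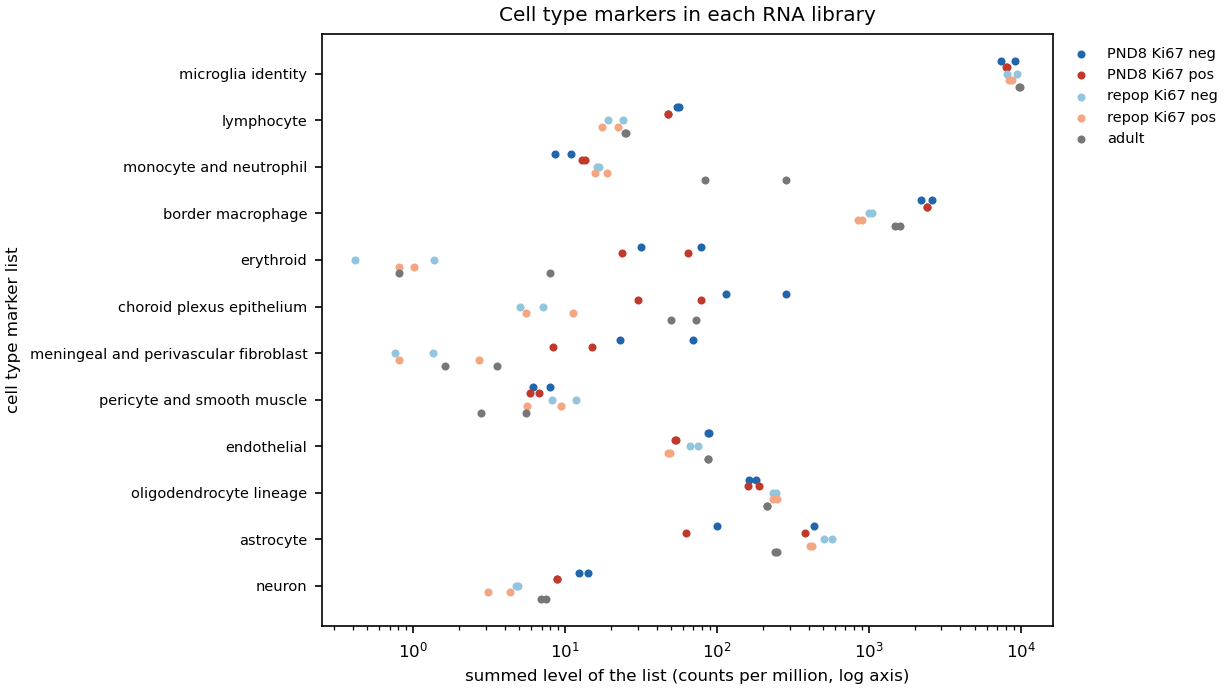
Summed level of 12 cell type marker lists (rows) in each of the 10 RNA libraries (points; horizontal axis in CPM, log scale), coloured by group. Choroid plexus and fibroblast sums are highest in the PND8 Ki67-negative libraries, at 284 and 114 and at 69.7 and 22.9, while the microglia identity sums lie close together.

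A run of protocadherin genes counted as many calls but came from 1 locus. All 25 tested entries of the protocadherin gamma cluster on chromosome 18 (mm10 36952648 to 37841872, plus strand), which share their last exons, were called lower, with log2 fold changes between -0.85 and -0.68. Leaving out Pcdhgb8, the 24 others had 424 to 533 counts in Ki67-negative replicate 1, 647 to 761 in Ki67-negative replicate 2, and 304 to 360 and 254 to 329 in the Ki67-positive replicates, so the same reads were counted for many entries. With the locus counted once, 361 genes were lower, 301 of them outside the cell cycle lists.

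The same contrast in repopulating microglia, which shares no library with PND8, had 229 genes higher (1.87% of those tested) and 106 lower (0.867%). Of the 336 genes higher in PND8, 191 were also called higher there, and of the 385 lower ones 52 were also called lower; no gene was called in opposite directions. Outside the cell cycle lists these numbers were 95 of 217 and 42 of 325. For the difference between the 2 contrasts itself, edgeR's quasi-likelihood test called 0 genes (lowest adjusted p = 0.106) with 613 genes at an unadjusted p under 0.05, and DESeq2 called 3. With Ki67-negative replicate 1 of PND8 left out the number was 71. The median of the licensing and fork list was -0.77 in PND8 and -0.28 in repopulation, where 3 of its 42 genes were called lower. The median of the kinesin and spindle list was 1.64 in PND8 and 1.40 in repopulation, where 27 of 30 were called higher. Mcm5 stood at -0.82 in PND8 and -0.35 in repopulation, and that difference was not called.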

How the data were processed

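The authors deposited a table of raw counts per gene made with HOMER over the exons of mm10 transcripts (1 per gene, at most 3 tags per position), per the file headers. A second deposited table holds TPM, which HOMER also wrote according to its header. H3K27ac regions were called by the authors in each library against its own input, per the file headers; their deposited signal (tags per region) was not used, only positions. The submitters' processing notes name STAR 2.7.0f, HOMER 4.11 and Bowtie2 2.3.4.1. The counting's strand setting is not given in the sources used here.

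Counts were fitted with edgeR 4.0.16 in R 4.3.3 (TMM factors, filterByExpr by group, quasi-likelihood) over all 10 RNA libraries with a term per group, so that 5 groups of 2 share an estimate of the spread. P-values were adjusted by Benjamini-Hochberg over 12230 genes, with 0.05 as the threshold. CPM divides counts by the library's total over the genes tested, multiplied by its TMM factor. On simulated counts for 11968 genes the code called 92 of 100 genes changed 2-fold, 98 of 100 changed 4-fold and 9 others. With no change it called 0. Every simulated gene had the same spread, and the simulated libraries varied independently. The real counts are less simple, so these rates check the code and do not carry over to the data. Alternatives used DESeq2 1.42.0, limma 3.58.1 on log2(TPM + 1), other scalings, no filter, a replicate block and leave-one-out fits.

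The members and lists were chosen with earlier results of these data known. Named genes were the 12 largest rises and falls among called genes with separate libraries and a mean of at least 2 CPM, the same outside the cell cycle lists, the 8 most abundant called genes outside them per direction, up to 4 called genes per list (or 2 of the highest level), and a fixed panel; others named were chosen after their values were seen. Intervals cover counting error only (95% level). With 2 libraries per group, p-values measure the spread between these samples.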

Additional observations from a re-analysis of the deposited data

How the results depend on the processing

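Counts of calls moved with the setting more than directions did. Against 336 higher and 385 lower genes, the numbers were 570 and 720 with no filter on low counts, and 158 and 97 with a fold of at least 2 also required. A fit of the 4 PND8 libraries alone called 164 lower genes, and 228 higher. Leaving out 1 library gave 162 to 672 higher and 58 to 441 lower genes; the lone library was then assumed to vary like the other groups. DESeq2 called 368 and 334. The same-numbered PND8 libraries deviated together across genes (r = 0.338), but the labels do not say what the number marks. A replicate block called 780 higher and 1082 lower genes over all 10 libraries and 641 and 632 over the 4 PND8 libraries, and kept every one of the 336 and 385 in the former. With the block over all 10 libraries, 12 of the 27 immediate early and heat shock genes were lower (11 over the 4 PND8 libraries, and 11 with no filter), as were 7 of 8 choroid plexus, 6 of 12 border macrophage, 6 of 30 homeostatic and 7 of 35 neonatal and disease-associated genes. For the difference between PND8 and repopulation, 0 genes became 3 with DESeq2, 52 with no filter, 28 with the replicate block and 0 to 71 with 1 library left out. Of 120 named genes that were called, DESeq2 called 109 and 61 kept their call in all 4 leave-one-out fits; 58 lost it without Ki67-positive replicate 2. The 1 named value that turned was Slc1a2, never called, at -0.33 on the log2 scale and between -1.28 and 2.96 with 1 library left out (2.96 without Ki67-negative replicate 1). The cause of these differences was not tested.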

Other observations

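The following genes belonged to no list and were chosen after their values were seen, so they say nothing of how other genes of the same structures moved. Lmnb1, which encodes lamin B1, had 119 and 144 CPM in Ki67-negative and 239 and 256 CPM in Ki67-positive libraries, a log2 fold change of 0.91 ± 0.20 (SE; edgeR adjusted p = 0.017). Tmpo, a lamina-associated protein, stood at 0.58 ± 0.11, Lbr, the lamin B receptor, at 0.51 ± 0.12, and the pore proteins Ndc1 and Pom121 at 0.77 ± 0.18 and 0.41 ± 0.08, and all 5 were called. Lmnb2 had a log2 fold change of 0.55 ± 0.19 and was not called. Iqgap1, a scaffold of the actin cytoskeleton, had 12.5 and 13.6 against 39.5 and 52.4 CPM, a log2 fold change of 1.81 ± 0.15 (edgeR adjusted p = 2.1e-05), and Diaph3, a formin, stood at 1.49 ± 0.17. Cd44, whose product was in the staining panel, had 4.95 and 8.81 against 13.3 and 18.5 CPM, a log2 fold change of 1.18 ± 0.25.

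Lower genes outside the lists, also chosen after their values were seen, included Dtl, the substrate receptor that removes CDT1 in S phase, with 68.6 and 72.7 against 25.6 and 23.6 CPM and a log2 fold change of -1.52 ± 0.16 (edgeR adjusted p = 9.0e-05). Tonsl and Donson, which act at replication forks, stood at -1.12 ± 0.16 and -0.94 ± 0.16. Dll1, a Notch ligand, had 10.6 and 14.2 against 4.30 and 3.93 CPM, a log2 fold change of -1.60 ± 0.29. Src, a tyrosine kinase, stood at -0.93 ± 0.13, Socs3, a feedback inhibitor of cytokine signalling, at -0.79 ± 0.12 and Cd86, a costimulatory ligand, at -0.39 ± 0.08. All of these were called.

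In 4 named genes the libraries parted in one direction in PND8 and in the other in repopulation. The log2 fold changes were -3.00 and 4.21 for Slc29a4, 0.38 and -0.09 for Ccng1, -1.12 and 0.44 for Colec12 and 0.16 and -0.08 for Psme4. The repopulation value of Slc29a4 rests on a Ki67-negative group with 0 counts and Ki67-positive levels of 0.231 and 0.288 CPM, so its size cannot be read. For each, edgeR's test of the difference gave an adjusted p of 0.96.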
